A study of Mus musculus with 6 samples.

Results

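Rspo3, Rspo1 and Rspo2 (R-spondin ligands), Lgr4 and Lgr6 (their receptors), Znrf3 and Rnf43 (ubiquitin ligases of the same complex) and Axin2, Lef1 and Tcf7 (target genes and factors of beta-catenin signalling) were followed in C2C12 cells, an established mouse myoblast line, transfected either with siRNA-MEG3, which targets the non-coding transcript Meg3, or with the negative control oligo siRNA-NC. These 10 genes were taken by name, through the RefSeq accession of each array probe, from 32451 genes and unnamed accessions on a single-colour Agilent mouse array, and had 12 of its 39429 probes. Rspo3 was the starting point because it was among the most strongly lowered genes of this same contrast, so the differences of all 10 genes between the groups are given as a description, with standard errors and no p-value. Each group had 3 arrays, which the labels call biological replicates. Both groups were grown in the same serum-containing medium, and the sources used here do not say how long after transfection RNA was taken.

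R-spondins are secreted proteins that strengthen Wnt signalling. They bind LGR receptors together with ZNRF3 or RNF43, which otherwise mark Frizzled receptors for removal, and so keep more Frizzled at the cell surface. Axin2, Znrf3, Rnf43, Lef1 and Tcf7 are known Wnt targets in many tissues, and the first 3 of these act back on the pathway as inhibitors. In muscle progenitors, R-spondins have been linked to myogenic differentiation.

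In short, Rspo3 read lower under siRNA-MEG3 by the reported processing, 8.75-fold by a nominal bound set on dim siRNA-MEG3 signals. Normexp, another background correction, run with an offset of 50 that shrinks differences of dim probes, gave a log2 difference of -1.40. With spots under a bright speck kept, normexp gave 0.19, in a fit where the median of all genes was 0.50. The Rspo3 spot was not under that speck. Axin2 read 3.18-fold lower and Rspo2 1.62-fold lower, while Lgr4, Lef1 and Tcf7 showed no difference larger than the spread within the control group. Rspo1 stood lower on 1 array, and Lgr6, Znrf3 and Rnf43 were too dim to compare. These arrays read whole cultures, in which fewer cells expressing a gene and less of its RNA per cell cannot be told apart.

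In repeat spots of 227 probes, spot-to-spot scatter was common to siRNA-MEG3 arrays 1 and 3 (r = 0.98), and siRNA-NC arrays 1 and 3 were as alike as repeat spots of 1 array (variance of probe differences 1.04 times that of spot noise), so each pair was averaged and counted once. siRNA-MEG3 array 2 was itself close to array 1 (1.33 times spot noise), whereas siRNA-NC array 2 was far from array 1 (159 times). For siRNA-MEG3 arrays 1 and 3, whose scatter was shared, this ratio was 2.10, with an SD of probe differences of 0.0204. That SD was 0.137 between siRNA-MEG3 arrays 1 and 2. The arrays therefore do not tell whether the siRNA-MEG3 samples were separate cultures. This left 2 samples per group (n = 2), and the p-values reflect only how far these samples spread, which may be technical. Per the file headers, the siRNA-NC arrays were scanned together and the siRNA-MEG3 arrays in later scans, with array 3 scanned apart from arrays 1 and 2 but at the same slide position as array 1, so scan session and group cannot be told apart. Of 3 probes for Meg3 itself, 1 was well above background on siRNA-NC array 2 and none on any siRNA-MEG3 array, so the arrays do not check the knockdown. Of all spots, 70.1 to 75.2% under siRNA-NC against 62.8 to 69.3% under siRNA-MEG3 read well above background, no spot was saturated, and the processed signal had a 75th percentile of 1232 to 2279 on siRNA-NC arrays and of 1237 to 1334 on siRNA-MEG3 arrays. Of 8 muscle markers, 7 were well above background on all arrays, including Myod1, Myf5 and Des.

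Promoter windows from RefSeq (GRCm38.p6, 250 bases before to 50 after a transcript start) were found for 7 of the 10 genes, with 12 windows in all; none was found for Rspo2, Rspo3 and Znrf3. The Axin2 window is shown because Axin2 was the most clearly measured target gene that read lower, and the Lef1 window because it was the 1 window of the 12 with a match to the TCF/LEF core. The letters searched were CTTTG followed by any pair of bases that are each A or T, on both strands, and 16.9% of 32851 windows of the same length held at least 1 of them. The Axin2 window is chr11:108920099-108920398, plus strand, 70.0% G and C. The Lef1 window is chr3:131156044-131156343, plus strand, at the most downstream of 4 listed Lef1 starts, with a match on the minus strand, first base at position -147 from the start, shown in capitals. A match is a description of letters and not a site of binding, and no match says only that these letters are not in the window.
Axin2: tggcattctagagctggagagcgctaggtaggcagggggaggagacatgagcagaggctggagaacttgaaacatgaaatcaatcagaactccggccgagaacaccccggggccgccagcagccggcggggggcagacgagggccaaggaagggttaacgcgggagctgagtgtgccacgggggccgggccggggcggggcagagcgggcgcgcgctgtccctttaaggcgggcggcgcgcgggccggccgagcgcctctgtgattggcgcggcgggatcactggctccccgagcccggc
Lef1: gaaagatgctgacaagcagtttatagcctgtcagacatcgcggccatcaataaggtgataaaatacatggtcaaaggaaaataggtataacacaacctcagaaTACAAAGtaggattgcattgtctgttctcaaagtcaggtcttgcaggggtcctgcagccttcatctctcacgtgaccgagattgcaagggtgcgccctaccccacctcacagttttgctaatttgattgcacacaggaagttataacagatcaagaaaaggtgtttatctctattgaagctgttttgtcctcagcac

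**Figure D1:**
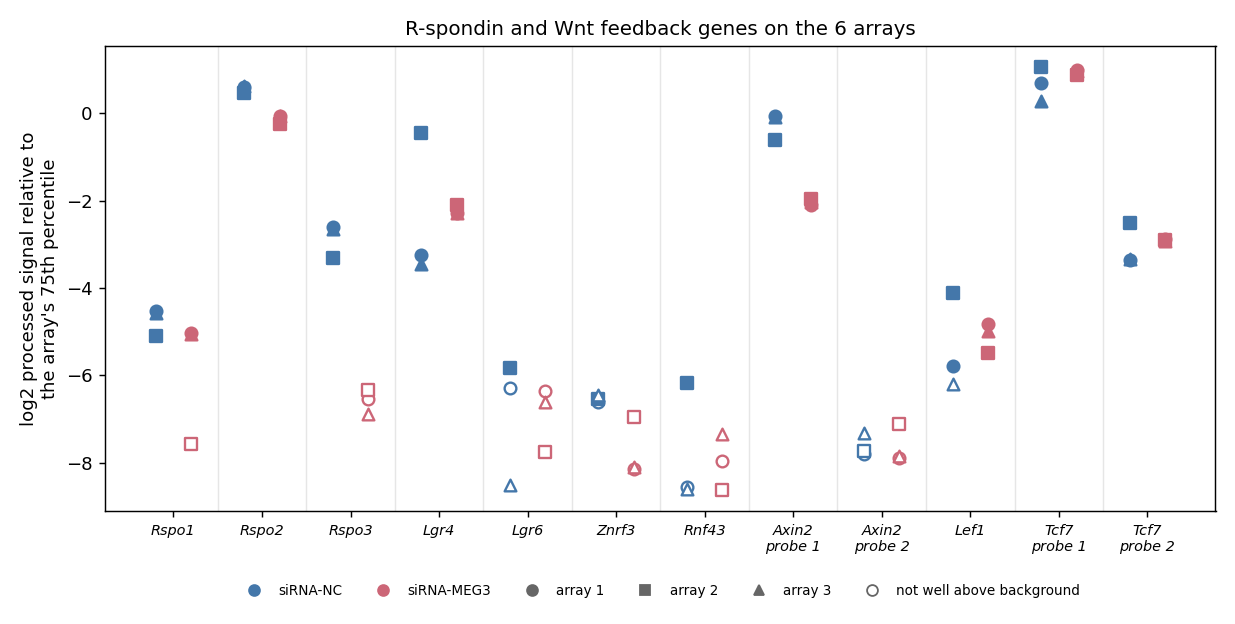
Log2 processed signal of each probe relative to the 75th percentile of its own array, for siRNA-NC (blue) and siRNA-MEG3 (red) arrays 1 (circle), 2 (square) and 3 (triangle); open symbols are not well above background. Rspo3 lies between -3.32 and -2.60 on the siRNA-NC arrays and is open on all 3 siRNA-MEG3 arrays, and Lgr4 stands far higher on siRNA-NC array 2 than on the other siRNA-NC arrays; levels of different probes cannot be compared.

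Rspo3, a secreted Wnt enhancer, was read by 1 probe. Before any scaling its processed signal read 213, 227 and 198 on the siRNA-NC arrays, in the order 1 to 3, against 14.2, 16.6 and 10.5 on their siRNA-MEG3 counterparts; values below keep this order. The scanner software put the error of these spots at 20.1 to 23.1 under siRNA-NC and at 3.76 to 4.91 under siRNA-MEG3. All 3 siRNA-NC arrays were therefore high and close together, all 3 siRNA-MEG3 arrays were low and not well above background, and the groups did not overlap.

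Relative to the array's 75th percentile, the mean log2 level of Rspo3 was -2.97 ± 0.50 (SD, n = 2) under siRNA-NC against -6.51 ± 0.26 (SD, n = 2) under siRNA-MEG3. Since no siRNA-MEG3 array was well above background, the size is given as a nominal bound for the reported processing only: Rspo3 was 8.75-fold lower. The bound sets the siRNA-NC mean against the mean of, for each siRNA-MEG3 array, the higher of its lowest signal well above background and the probe's own signal. On siRNA-MEG3 array 2 the probe's own scaled log2 signal (-6.33) was the higher, against a lowest signal of -6.58. The bound therefore leans there on a level that was not well above background. The lowest signal is not a detection limit. On siRNA-NC array 3, Lef1 (-6.19) lay above the lowest signal (-6.41) without being well above background. The bound is therefore not strict, and the difference could be smaller. The measured log2 difference was -3.54 ± 0.34 (SE), and 0.0816% of the 22053 genes compared had a difference at least this low. Normexp, which models background as noise under the signal, was run with an offset of 50 added to every signal. The offset by construction shrinks log2 differences of dim probes, and its part here was not tested. Normexp gave a log2 difference of -1.40 ± 0.30 when spots lying under a bright speck of siRNA-MEG3 array 2 were left out. With those spots kept, normexp gave 0.19 ± 1.13, so the direction did not hold in that setting. The Rspo3 spot was not under the speck: its local background on siRNA-MEG3 array 2 was 20, against up to 264044 on that array. In that setting the median log2 difference of all genes was 0.50, and 0 genes were called higher or lower.

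Among the measured genes with a symbol, 5 lay closest to Rspo3 by the root mean square distance between centred log2 values over the 4 samples, out of 15362 compared. They were Pdzrn4 (distance 0.0928), Smg8 (0.124), Gm2030 (0.128), Tbc1d14 (0.136) and Ubxn4 (0.180), and their log2 differences ran from -3.34 to -3.81. Of these, only Gm2030 was well above background on all 3 siRNA-MEG3 arrays. Smg8 and Ubxn4 were so on 2, Tbc1d14 on 1 and Pdzrn4 on 0, so these sizes lean on dim signals. A second Pdzrn4 probe, well above background on 1 siRNA-NC array only, gave -1.49. The points share arrays and scans, and a difference between the groups of about the same size places a gene on this list. A second, brighter probe of Tbc1d14 was well above background on 1 siRNA-MEG3 array. It had only outlier spots on the other siRNA-MEG3 arrays, so it was not compared.

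The other R-spondin genes differed less. Rspo2, which was well above background on all 6 arrays, had processed signals of 1950, 3160 and 1900 under siRNA-NC against 1260, 1130 and 1180 under siRNA-MEG3. Its scaled log2 level was 0.54 ± 0.10 (SD, n = 2) under siRNA-NC against -0.15 ± 0.13 under siRNA-MEG3, a log2 difference of -0.69 ± 0.21 (SE), or 1.62-fold lower. The 3 siRNA-MEG3 arrays lay below the 3 siRNA-NC arrays, and 14.0% of all genes compared had a difference at least this low.

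Rspo1, the third R-spondin gene listed, read 56.1, 66.6 and 51.8 under siRNA-NC against 39.8, 7.08 and 37.0 under siRNA-MEG3. Only siRNA-MEG3 array 2 was low and not well above background, while arrays 1 and 3 were near the siRNA-NC arrays. The groups overlapped in scaled log2 values. The log2 difference was -1.48 ± 0.91 (SE), and without siRNA-MEG3 array 2, which leaves 1 siRNA-MEG3 sample, it was -0.23. With normexp it was -0.17 without the speck spots and 1.59 with them, so the direction changed with the processing. The remaining gene of the family, Rspo4, which is not among the 10 genes, read 18.0, 37.7 and 19.8 under siRNA-NC against 43.2, 11.2 and 44.2 under siRNA-MEG3, was well above background on 3 of the 6 arrays and was not compared.

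Lgr4, which encodes the R-spondin receptor found in many tissues, was well above background on all 6 arrays but split the control group. It read 136, 1670 and 113 under siRNA-NC against 268, 313 and 256 under siRNA-MEG3. After scaling, siRNA-NC array 2 stood 7.44-fold above the mean of siRNA-NC arrays 1 and 3, and 0.154% of all genes compared had a difference between these controls at least this high. All 3 siRNA-MEG3 arrays fell between the control samples. The log2 difference between the groups was -0.29 ± 1.02 (SE), and without siRNA-NC array 2 it was 1.16, so its direction rested on that array.

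Lgr6, a related receptor gene, was well above background on siRNA-NC array 2 only, with processed signals of 16.4, 40.5 and 3.41 under siRNA-NC against 15.9, 6.14 and 12.7 under siRNA-MEG3. Lgr5, the stem cell marker of the same receptor family and not among the 10 genes, was not well above background on any array. No fold is given for either receptor.

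**Figure D2:**
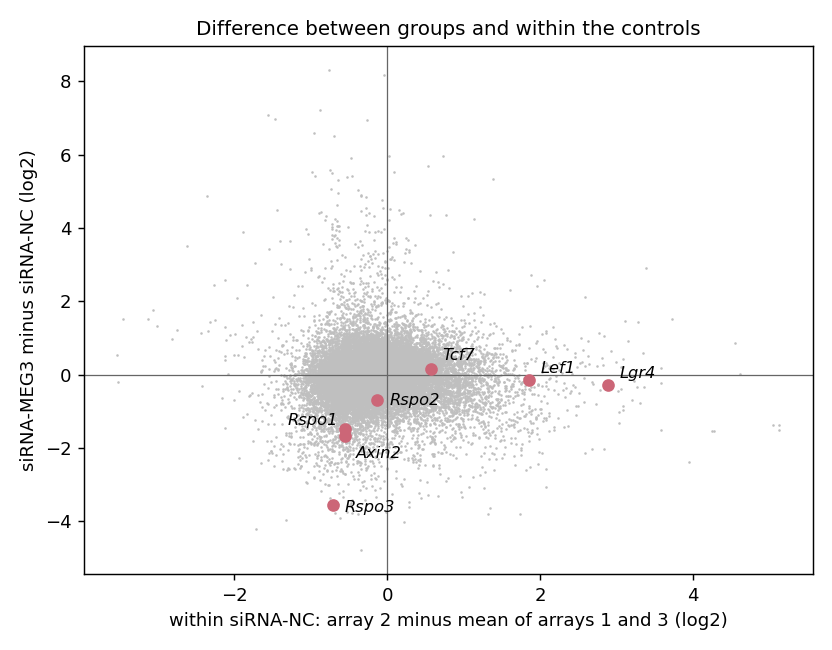
Difference within the control group (siRNA-NC array 2 minus the mean of arrays 1 and 3, horizontal) against the difference between the groups (siRNA-MEG3 minus siRNA-NC, vertical), both in log2, with 1 grey point per gene (22053) and the 7 measured members in red. Lgr4 and Lef1 lie far to the right near a group difference of 0, and Rspo3 lies at the bottom at -3.54 with a control difference of -0.70.

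The ligase genes Znrf3 and Rnf43, whose products remove Frizzled receptors from the cell surface, were at the edge of detection. Znrf3 read 13.2, 24.7 and 14.1 under siRNA-NC against 4.64, 10.7 and 4.55 under siRNA-MEG3, and Rnf43 read 3.45, 31.5 and 3.16 under siRNA-NC against 5.28, 3.36 and 7.56 under siRNA-MEG3. Each was well above background on siRNA-NC array 2 only. No fold is given, and a difference in these ligase genes was not detectable at this signal.

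Axin2, which encodes a scaffold of the beta-catenin destruction complex and is a widely used readout of Wnt signalling, read lower on its bright probe. The processed signal was 1230, 1480 and 1170 under siRNA-NC against 307, 341 and 302 under siRNA-MEG3, with spot errors of 117 to 148 and 30.7 to 34.3. All 6 arrays were well above background, and every siRNA-MEG3 array lay below every siRNA-NC array. The scaled log2 level was -0.35 ± 0.39 (SD, n = 2) under siRNA-NC against -2.01 ± 0.07 under siRNA-MEG3. The log2 difference was -1.67 ± 0.27 (SE), or 3.18-fold lower, and 2.59% of all genes compared had a difference at least this low.

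It was -1.32 with normexp once the speck spots were left out and -0.74 with them kept, and it stayed between -1.94 and -1.66 when each array was left out in turn. The second Axin2 probe was not well above background on any array (5.77, 10.7 and 7.70 under siRNA-NC, 5.45, 9.66 and 5.37 under siRNA-MEG3), so the difference rests on 1 probe.

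Lef1 and Tcf7 encode DNA-binding partners of beta-catenin. Lef1 read 23.4, 131 and 16.9 under siRNA-NC against 45.9, 29.7 and 39.2 under siRNA-MEG3, and only siRNA-NC array 3 was not well above background. As with Lgr4, siRNA-NC array 2 was the high one, 3.63-fold above the mean of the other siRNA-NC arrays after scaling, and 0.771% of all genes had a control difference at least this high. The log2 difference between the groups was -0.14 ± 0.70 (SE), and without siRNA-NC array 2 it was 0.79.

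The brighter Tcf7 probe read 2080, 4760 and 1510 under siRNA-NC against 2590, 2480 and 2440 under siRNA-MEG3. The second probe read 126, 402 and 122 under siRNA-NC against 178, 181 and 163 under siRNA-MEG3. Both probes were highest on siRNA-NC array 2 and had the siRNA-MEG3 arrays inside the range of the controls. Their log2 differences were 0.16 ± 0.28 (SE) and 0.03, smaller than the spread within siRNA-NC (SD 0.41 and 0.59).

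**Figure D3:**
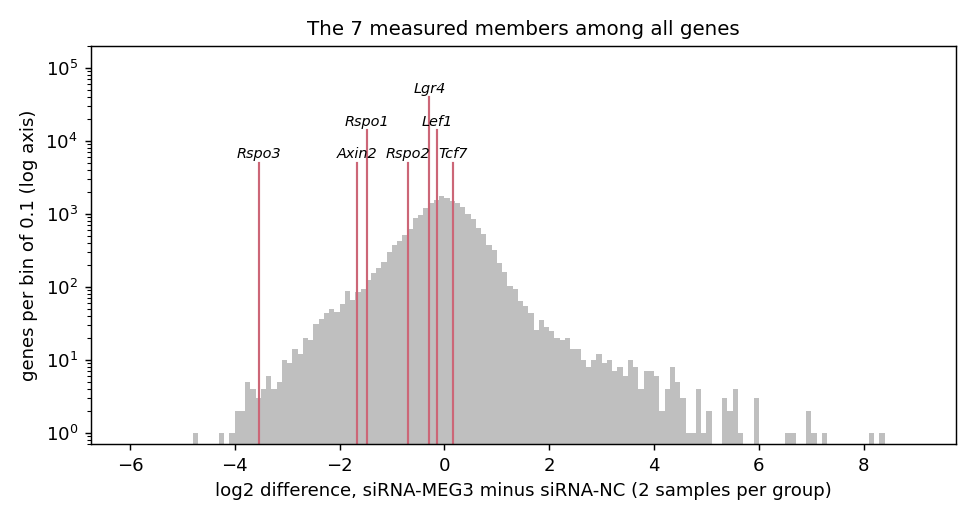
Histogram of the log2 difference (siRNA-MEG3 minus siRNA-NC, bins of 0.1, log vertical axis) of 22053 genes, with a red line at each of the 7 members that passed the filter on dim probes. Rspo3 lies in the far left tail at -3.54, Axin2, Rspo1 and Rspo2 lie at -1.67, -1.48 and -0.69, and Lgr4, Lef1 and Tcf7 lie between -0.29 and 0.16.

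Of the 10 genes, 7 passed the filter on dim probes (every array of 1 group or the other well above background) and entered the comparison over all genes, and 3 did not (Lgr6, Znrf3 and Rnf43). Of the 7, 1 was called lower (Rspo3) and none higher by limma at an adjusted p under 0.05, against 0.422% of all genes called lower and 0.952% called higher. These genes were chosen on this contrast, and Rspo3 passed the filter through siRNA-NC alone, so the count describes the choice and nothing is read from it. The Rspo3 call was lost under both normexp settings, with dim probes kept, with a replicate block on the averaged samples and without siRNA-NC array 2. The last leaves 1 siRNA-NC sample. With normexp on all spots and with dim probes kept, 0 genes were called over the whole array, so those losses are not particular to Rspo3. With 6 arrays as 6 samples, which counts near-identical arrays as separate, 3 members were called lower (Rspo3, Axin2 and Rspo2). In that setting 2587 of 21942 genes were called lower and 3114 higher, and nothing is read from the member count there either. The arrays of the groups did not overlap for 3 of the 7 (Rspo2, Rspo3 and Axin2), all lower, while 21.9% of all genes were lower without overlap and 47.2% did not overlap in either direction.

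Unscaled, siRNA-NC array 2 gave the highest signal of the 6 arrays on each of the 12 probes. After scaling, 3 of the 7 measured genes (Lgr4, Lef1 and Tcf7) stood higher on that array than on the other siRNA-NC arrays and 4 stood lower. Over all genes this difference had a median of -0.22 and an SD of 0.58, against 2.89 for Lgr4, 1.86 for Lef1 and 0.57 for Tcf7. The one large difference within siRNA-MEG3 was that of Rspo1, at -2.51 between array 2 and the mean of arrays 1 and 3, and 2.93% of all genes had a difference of at least that size there.

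None of the 12 probes had an outlier spot on any array. Dark patches were sought on the siRNA-MEG3 arrays only. They were blocks where over 5% of the spots well above background on every siRNA-NC array read over 4-fold below the siRNA-NC mean. They covered 33.9, 5.95 and 22.7% of the spots of siRNA-MEG3 arrays 1 to 3. Those blocks held the spots of the dim second Axin2 probe and of Rnf43 on siRNA-MEG3 arrays 1 and 3, and of no other member. The block of the Rspo3 spot on siRNA-MEG3 array 2 stood at 4.49%, just under the limit. Local background around the spots of the members ran from 17 to 29.

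Other genes of the Wnt pathway were listed by role and not by how they moved. Of 98 listed genes 80 were measured, and Frzb was the 1 gene called higher, 0 were called lower and the remaining 79 missed the limma threshold (adjusted p under 0.05), against 1.37% of all genes called in either direction. Frzb entered the comparison only through siRNA-MEG3, where it read high, so nothing is read from its call. With dim probes kept 0 pathway genes were called, and 0 genes over the whole array. Of the 80 genes 41 had a positive and 39 a negative difference, with a median of 0.02 against -0.02 over all genes. At an unadjusted p under 0.05 the count was 16 of 80, against 4105 of 22053 over all genes.

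Frzb, which encodes a secreted Frizzled-related protein that binds Wnt ligands, read 11.7, 20.0 and 14.2 under siRNA-NC against 72.7, 88.0 and 70.5 under siRNA-MEG3. Every siRNA-MEG3 array was above every siRNA-NC array, and of the latter only array 2 was well above background. The size below is therefore not set against a measured control level on arrays 1 and 3, and no p is given. The nominal log2 difference was 2.68 ± 0.22 (SE, n = 2 per group). The Frzb call was lost when dim probes were kept, when a replicate block was fitted to the averaged samples, and under both normexp settings. Normexp put its log2 difference at 1.31 without the speck spots and at 2.45 with all spots. Leaving out siRNA-NC array 2, which leaves 1 siRNA-NC sample, gave 2.57. Of the 13 measured secreted and surface modulators, 5 had a positive and 8 a negative difference, with a median of -0.33. Sost, a secreted inhibitor of Wnt co-receptors, had the smallest p in this list after Frzb, at 1.48 ± 0.21 (limma adjusted p = 0.0703, not passing). Sost read 39.3, 56.3 and 24.3 under siRNA-NC against 82.8, 98.4 and 80.0 under siRNA-MEG3.

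**Figure D4:**
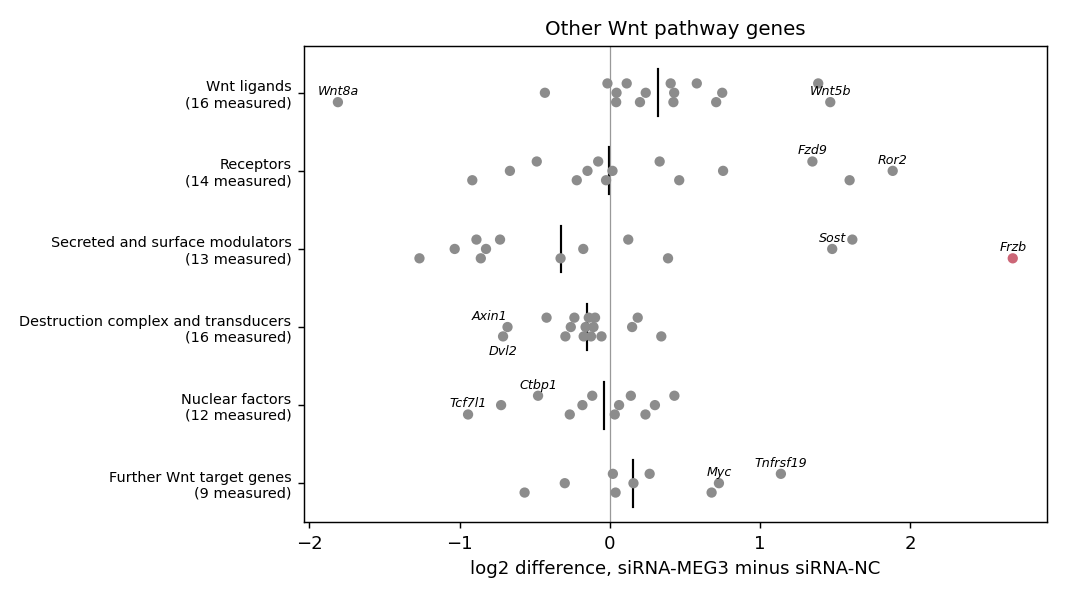
Log2 difference (siRNA-MEG3 minus siRNA-NC) of 80 measured Wnt pathway genes in 6 lists by role, with a black line at each list's median. The 1 gene past the threshold, Frzb at 2.68, is red and entered the comparison only through siRNA-MEG3. The list medians run from -0.33 to 0.32.

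Among 16 measured genes for Wnt ligands and their secretion, none passed, 13 had a positive difference and the median was 0.32. Wnt5b, a ligand known mainly for beta-catenin-independent signalling, had the smallest p, at 1.47 ± 0.25 (limma adjusted p = 0.0984), reading 160, 215 and 136 under siRNA-NC against 428, 345 and 407 under siRNA-MEG3. Wnt8a, a ligand of early embryos, was dim on all siRNA-MEG3 arrays (none well above background) and stood 1.26-fold lower by a nominal bound of the same kind. It entered the comparison only through siRNA-NC and did not pass, so no p is given. Its mean log2 levels were -5.90 under siRNA-NC against -7.71 under siRNA-MEG3. Its spots on siRNA-MEG3 arrays 1 and 2 lay in dark patches, and with those left out it could not be compared. Normexp put its log2 difference at -0.12 without the speck spots and at 1.64 with them, so its direction changed with the processing.

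Of 14 measured receptors none passed, with 7 positive and 7 negative differences. Ror2, a tyrosine kinase receptor for Wnt ligands of the beta-catenin-independent branch, was the closest, at 1.88 ± 0.23 (limma adjusted p = 0.0579), with 129, 173 and 113 under siRNA-NC against 444, 395 and 406 under siRNA-MEG3. It passed with the spots of dark patches left out (limma adjusted p = 0.0449). None of its own spots lay in a dark patch and its log2 difference stayed at 1.88. That setting tested 16931 genes against 22053 in the reported fit, so the pass adds no measurement of Ror2. The Frizzled gene Fzd9 entered the comparison only through siRNA-MEG3 and cleared background on siRNA-NC array 2 but not on arrays 1 and 3, so its values are given without a p. It read 16.3, 28.5 and 15.4 under siRNA-NC against 44.1, 41.6 and 39.4 under siRNA-MEG3.

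None of the 16 measured genes of the destruction complex and its transducers passed, and 13 had a negative difference, with a median of -0.15. The smallest p belonged to Axin1, the constitutive relative of Axin2, at -0.68 ± 0.39, and to the Dishevelled gene Dvl2, at -0.71 ± 0.42 (limma adjusted p = 0.449 and 0.456). Both were high on siRNA-NC array 2 (621 against 179 and 178 for Axin1, 1270 against 346 and 330 for Dvl2), with the siRNA-MEG3 arrays near the other controls (148 to 179 and 296 to 324).

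None of 12 nuclear factors passed, and 6 were positive and 6 negative. Tcf7l1, a mostly repressive relative of Tcf7, read 3950, 4050 and 3920 under siRNA-NC against 1500, 1700 and 1500 under siRNA-MEG3, a log2 difference of -0.94 ± 0.34 (limma adjusted p = 0.266). The co-repressor gene Ctbp1 stood at -0.48 ± 0.27 (adjusted p = 0.445).

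Of 9 further Wnt target genes none passed, and 7 had a positive difference, with a median of 0.16. Myc, a growth regulator that many pathways besides Wnt control, stood at 0.73 ± 0.23 (limma adjusted p = 0.219), and the receptor gene Tnfrsf19 at 1.14 ± 0.24 (adjusted p = 0.138) with -0.41 on its other probe. A p that misses the threshold does not show that a gene was unchanged.

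Of 8 myoblast and muscle markers, 1 passed the threshold. The summed level of the 8, in units of each array's 75th percentile, was 27.1 to 33.2 under siRNA-NC against 44.1 to 44.8 under siRNA-MEG3, with signs of single markers going both ways. Each sum here adds linear signals over every probe of a list, so the brightest probes weigh most. Those were probes of Ncam1 and Itga7 here, and of Pdgfra, Csf1r and Kdr in the fibroblast, macrophage and endothelial lists. The marker that passed was Myog, a factor of terminal differentiation, which rose by 3.39 ± 0.22 on the log2 scale (limma adjusted p = 0.0246). Myf5, an early myogenic factor, stood at -2.95 ± 0.41 (adjusted p = 0.0703). No marker of another cell type passed. For 3 fibroblast markers the sum was 3.21 to 4.36 and 2.22 to 2.24, with Dpt not well above background on any array and Pdgfra well above it on all. The macrophage and leukocyte markers on the array (3 of 4) gave 0.544 to 0.660 and 0.865 to 0.887, and 3 endothelial markers gave 0.934 to 0.987 and 0.916 to 1.26. The adipocyte sum (3 of 3 on the array) was 0.0688 to 0.0726 and 0.0762 to 0.0799, and the osteoblast sum (2 of 3 on the array, none well above background on all arrays) was 0.0337 to 0.0454 and 0.0269 to 0.0756. The part of these markers in the Rspo3 and Axin2 differences was not tested.

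The authors' deposited table held the same order for the main members. In the authors' deposited table Rspo3 stood at 8.09, 7.34 and 8.01 under siRNA-NC against 4.42, 4.44 and 4.16 under siRNA-MEG3 on the log2 scale. In that table Axin2, by its brighter probe, stood at 10.43, 9.82 and 10.43 and at 8.46, 8.57 and 8.50. The differences between sample means computed from the authors' deposited table were -3.33 ± 0.30 (SE) for Rspo3 and -1.60 ± 0.27 for Axin2.

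**Figure D5:**
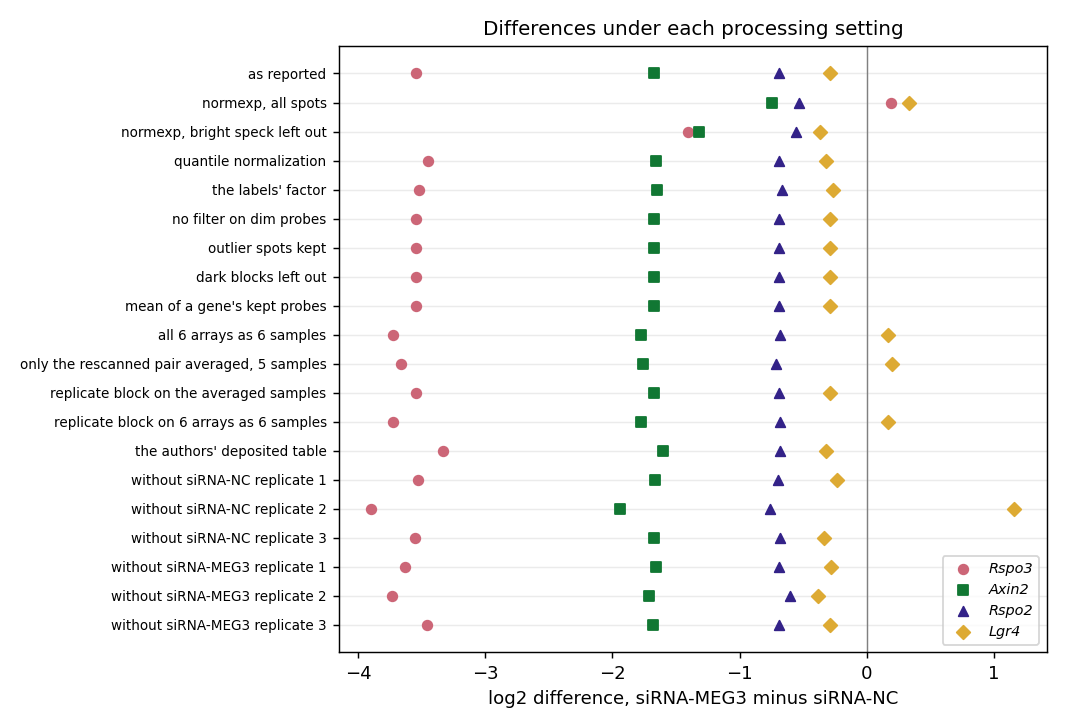
Log2 difference (siRNA-MEG3 minus siRNA-NC, horizontal) of Rspo3, Axin2, Rspo2 and Lgr4 under the reported processing and 19 alternatives (vertical). Rspo3 stays between -3.89 and -3.33 except under the normexp settings, where it is -1.40 and 0.19, and Lgr4 crosses 0 in 5 settings, reaching 1.16 without siRNA-NC array 2.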

How the data were processed

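Per the file headers, Agilent Feature Extraction 11.0.1.1 wrote the deposited scanner files, which hold intensity values: a processed signal, background-subtracted within each array, its error, a median pixel signal and a local background. The authors' deposited table holds log2 values for 30732 probes. All its columns share a maximum of 18.2 and follow the log2 processed signal (r of at least 0.9991), so its scale and direction were inferred, while its centring and between-array step are not stated. Per the labels, the authors took means of replicated mRNAs and a scaling factor from those reaching an intensity of 30.

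Log2 processed signals were set relative to each array's 75th percentile over 39429 probes, outlier spots were left out and the spots of a probe averaged. Probes were named through unversioned RefSeq accessions (GRCm38.p6; 27234 named, 12195 not), and no gene coordinates are given because the array design is older. Probes had to be well above background on every array of 1 group and to have a value in all 4 samples, and a gene was represented by its brightest such probe (22053 entries, all called genes). The group comparison used limma 3.58.1 under R 4.3.3 (2-sided, group as the only term, 2 residual and 2.20 prior degrees of freedom) with Benjamini-Hochberg adjustment over all 22053, and the model was tested on simulated data. Named pathway genes were those past the threshold (up to 5 a list), filled to 2 by smallest p. The members, the lists, the averaging of arrays and the tests were chosen with earlier results of these data known. Alternatives covered background (normexp, offset 50), scaling, filter, outliers, dark patches, probe choice, array counting, block, the deposited table and leaving out each array. The number of arrays limits the precision.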

Additional observations from a re-analysis of the deposited data

How the results depend on the processing

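Rspo2, Axin2 and Frzb kept their direction in all 19 alternatives, and Rspo3 and Rspo1 in all but normexp with all spots (0.19 and 1.59), where Lef1 (1.51), Lgr4 (0.33), Axin1 (0.54) and Wnt8a (1.64) changed sign too. That fit moved the median of all genes to 0.50, and a speck on siRNA-MEG3 array 2 raised local background to 264044, where its median was 21.5. Without its 18 spots Rspo3 stood at -1.40. Lef1 and Lgr4 also changed sign with 6 arrays as 6 samples (0.26 and 0.16, the same with the replicate block), with 5 samples (0.17 and 0.20) and without siRNA-NC array 2 (0.79 and 1.16), and Lef1 without siRNA-MEG3 array 2 (0.15); leaving out each array spanned -0.24 to 0.79 for Lef1 and -0.38 to 1.16 for Lgr4. The cause was not tested.

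The main counts were 210 genes higher and 93 lower, and 1 pathway gene higher and 0 lower (16 at an unadjusted limma p under 0.05). Normexp with all spots gave 0 and 0 over all genes (781 at an unadjusted p under 0.05) and 0 on the pathway lists; without the speck 112 were higher and no pathway gene was. With dim probes kept, 0 were higher, 0 lower and 0 on the lists (4349 at an unadjusted p under 0.05). With dark patches left out 2 pathway genes were higher. As 6 samples the arrays gave 3114 and 2587 genes and 13 and 7 pathway genes, and as 5 samples 966 and 922, and 7 and 2; near-identical arrays shrink the spread there by construction. A replicate block gave 124 and 28 genes and 0 pathway genes on the averaged samples, and 1422 and 1268, and 8 and 4, on 6 arrays. Arrays of the same number did not deviate together (r from -0.0428 to -0.0327), so the numbers do not pair the samples. Of the calls 69.3% were higher in the reported fit and 54.6% with 6 samples.

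Leaving out each array gave 0 to 1200 genes higher, 0 to 1793 lower, 0 to 6 pathway genes higher and 0 to 4 lower, and put Rspo3 between -3.89 and -3.46. The highest counts came without siRNA-MEG3 array 2 and the lowest without siRNA-NC array 2. Each leaves 1 sample in a group, assumed to vary like the other, so nothing is read from these counts. Without siRNA-MEG3 array 2 the fit gave every gene the same variance, so its calls follow the size of the log2 difference alone. Without siRNA-NC array 1, 40 genes were lower. Rspo3, Lgr6, Znrf3 and Rnf43 are limited by signal over background.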
